A study of Mus musculus with 2 samples.

Results

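Il1rl1-positive T cells of the mouse spleen are described here in 2 single-cell libraries, 1 per genotype. Cells were chosen by their measured counts: a member held at least 200 genes, at most 25% of its counts from mitochondrial genes, at least 1 unique molecular identifier (UMI, a tag that counts 1 captured transcript) of Il1rl1, at least 1 UMI over Trac, Cd3e and Cd3g, and none of Mcpt8, a basophil protease. By this rule 15444 of the 26620 cells in both files were members. The LatY136F CD45-KO library gave 7686 of 12845 cells and the LatY136F library gave 7758 of 13775 cells. Both libraries come from spleen cells sorted for CD3 and CD5, from mice aged 8 to 9 weeks. All mice carry the LatY136F mutation of the adaptor LAT, which removes its docking site for phospholipase C gamma and is known to cause a T helper 2 (Th2)-type expansion of CD4 T cells. The LatY136F CD45-KO mice also lack CD45, a tyrosine phosphatase at the T cell surface that is the product of Ptprc. The number of mice behind each library, the deleted exons and the cells in which CD45 is lost are not given in the sources used here. With 1 library per genotype no difference has a replicate check, and p-values are left out. The bounds in parentheses are exact at 95% and cover the error of counting only.

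Il1rl1 encodes ST2, the receptor chain that binds interleukin 33, an alarm signal released by damaged barrier tissue. With its partner chain, encoded by Il1rap, ST2 signals through Myd88, IRAK kinases and Traf6 to NF-kappa-B and p38. In T cells ST2 is known from Th2 cells, where the transcription factor GATA3 promotes it, and from a subset of regulatory T cells. Th2 cells that settle in tissue are known for Il5, Il13, Pparg, Il17rb and receptors for lipid mediators, and these genes were therefore listed for comparison.

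Il1rl1 (ENSMUSG00000026069.15) lies on the plus strand of chromosome 1, from 40429570 to 40465415 in GRCm38, and has an upstream and a downstream start in RefSeq. The windows around both starts, from 250 bases before to 50 bases after, are shown because GATA3 marks these cells and binds GATA letters. Capitals mark the 4 motifs AGATAA and AGATAG and also TGATAA and TGATAG, searched on both strands; no match overlapped another in these windows. The upstream window is chr1:40429320-40429619 and the downstream window is chr1:40439379-40439678, both on the plus strand of GRCm38.p6, with 10059 bases between the starts.
Il1rl1 upstream start: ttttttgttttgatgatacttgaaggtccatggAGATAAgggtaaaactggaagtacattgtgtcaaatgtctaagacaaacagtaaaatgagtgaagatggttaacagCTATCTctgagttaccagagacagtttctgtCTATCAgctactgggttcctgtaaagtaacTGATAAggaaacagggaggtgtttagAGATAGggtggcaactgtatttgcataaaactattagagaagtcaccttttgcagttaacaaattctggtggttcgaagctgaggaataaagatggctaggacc
Il1rl1 downstream start: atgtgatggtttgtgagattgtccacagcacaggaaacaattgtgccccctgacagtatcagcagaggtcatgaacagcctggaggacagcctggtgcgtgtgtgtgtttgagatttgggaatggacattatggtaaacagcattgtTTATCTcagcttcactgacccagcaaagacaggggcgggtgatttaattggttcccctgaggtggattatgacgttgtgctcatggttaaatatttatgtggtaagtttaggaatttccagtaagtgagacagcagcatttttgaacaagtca
The upstream window held 5 matches, and the downstream window held 1. Over all 32851 RefSeq promoter windows of that length, 29.8% held at least 1 match, and 109 windows, 0.332%, held 4 or more. A match is a run of letters and does not show binding.

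Il1rl1 was found in a majority of the T cells of both libraries. Among cells that passed the T cell rule, 7686 of 12635, or 60.8%, were positive in the LatY136F CD45-KO library (Clopper-Pearson interval 60.0 to 61.7%), and 7758 of 13616, or 57.0%, were positive in the LatY136F library (56.1 to 57.8%). The share depends on depth. With each cell thinned to 1000 UMIs, which left out 328 and 398 shallower cells, it was 43.5% in the LatY136F CD45-KO library and 38.6% in the LatY136F library. These values chose the cells and are a description. At the border of the rule, 22.3% of LatY136F CD45-KO T cells held exactly 1 Il1rl1 UMI and 39.2% held none, while the most in a cell was 21. In the LatY136F library 43.0% held none and the most was 16. If every T cell had carried Il1rl1 at 1 common rate, 26.3% of LatY136F CD45-KO and 30.9% of LatY136F T cells would have held none. Gata3 likewise was absent from more cells than such a rate gives in both libraries, in the LatY136F library from 15.2% against 12.9%.

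**Figure D1:**
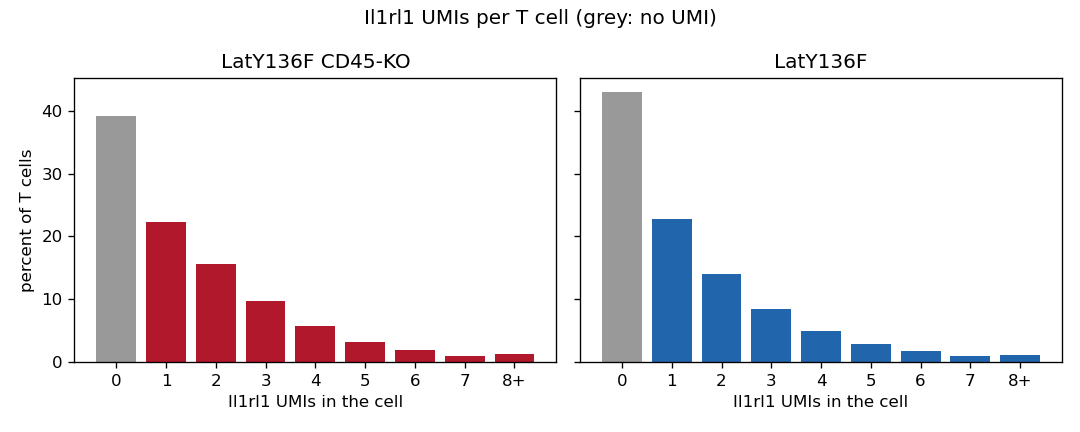
Percent of T cells (y axis) by the number of Il1rl1 UMIs in the cell (x axis), for the LatY136F CD45-KO library and the LatY136F library. The grey bar is the cells with none, 39.2% and 43.0%, and each coloured bar to its right is lower than the one before, up to 7 UMIs.

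A share in cells that should lack the gene could not be set beside it, since only 5 and 1 cells carried B cell genes without T cell genes. How much of the share comes from free RNA was not tested. At 1000 UMIs, cells with a UMI of the follicular helper (Tfh) genes Cxcr5 or Sostdc1 held Il1rl1 in 7.51% of 213 LatY136F CD45-KO cells (4.35 to 11.9%) and in 11.8% of 144 LatY136F cells (7.03 to 18.2%). Cells with a UMI of Gzmk or Ccl5, genes of cytotoxic cells, held it in 4.84% of 62 and 8.51% of 47 cells. Cells with a UMI of Gzmb, also a gene of cytotoxic cells, did not share this low value. They held Il1rl1 in 46.8% of 173 and 44.2% of 978 cells. Cells with a UMI of Cd8a or Cd8b1, the CD8 coreceptor genes, held it in 41.7% of 36 (25.5 to 59.2%) and 33.3% of 39 cells (19.1 to 50.2%). These wide intervals include the 43.5% and 38.6% of all T cells. At full depth Cd8a alone had a UMI in 2 positive and 8 depth-matched negative LatY136F CD45-KO cells, and in 3 and 13 LatY136F cells. The shares at 1000 UMIs are of a transcript that chose the cells and are a description. The Cxcr5, Sostdc1, Gzmk, Ccl5 and Gzmb gates are named after their values were seen.

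The label was checked against its second marker. Gata3, the master regulator of Th2 cells, had a UMI in 81.7% of positive and 77.4% of depth-matched negative cells of the LatY136F CD45-KO library, and in 86.8% of positive and 82.4% of negative cells of the LatY136F library. Its level was 1013 CPM (counts per 1000000 UMIs of the summed cells) in positive cells against 876 CPM in negative cells of the LatY136F CD45-KO library, a log2 ratio of 0.21 (0.17 to 0.25). All ratios below are log2 ratios of CPM, and in an unlabelled pair of ratios 1 is of LatY136F CD45-KO cells and the next of LatY136F cells. In the LatY136F library it was 1072 CPM against 945 CPM, a ratio of 0.18 (0.15 to 0.21). Gata3 was thus carried by most cells on both sides of the Il1rl1 rule. Among positive cells Ptprc was at 1118 CPM in the LatY136F CD45-KO library against 1754 CPM in the LatY136F library, a ratio of -0.65 (-0.67 to -0.62), and its transcript was still present in the library labelled CD45-KO. Reads from outside a deleted part do not check the label. Lat was at 376 CPM against 426 CPM, a ratio of -0.18.

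Positive cells were set against Il1rl1-negative T cells of the same library with the same UMI depth. Positives outnumbered negatives, so pairs were drawn 1 to 1 within 50 depth classes, which gave 4868 pairs in the LatY136F CD45-KO library and 5762 pairs in the LatY136F library and left out 36.7% and 25.7% of the positives. Median depth was 1927.5 UMIs in positive against 1927 in negative LatY136F CD45-KO cells, and 2166.5 against 2163.5 in LatY136F cells. A gene was called when it was at least 1.5-fold apart in the same direction in both libraries, with at least 50 UMIs in each. Of 10095 genes compared, 28 were called higher, 0.277%, and 144 lower, 1.43%, in positive cells. Which genes were called higher depended on the cells drawn. Of the 28, 13 were called again with at most 10% mitochondrial counts, 14 without cycling cells, 14 without the deepest cells, 16 without cells that held Foxp3 and 20 with at least 500 genes per cell, and of the 144 between 74 and 126 were. Negative cells may include cells that express Il1rl1 below detection.

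**Figure D2:**
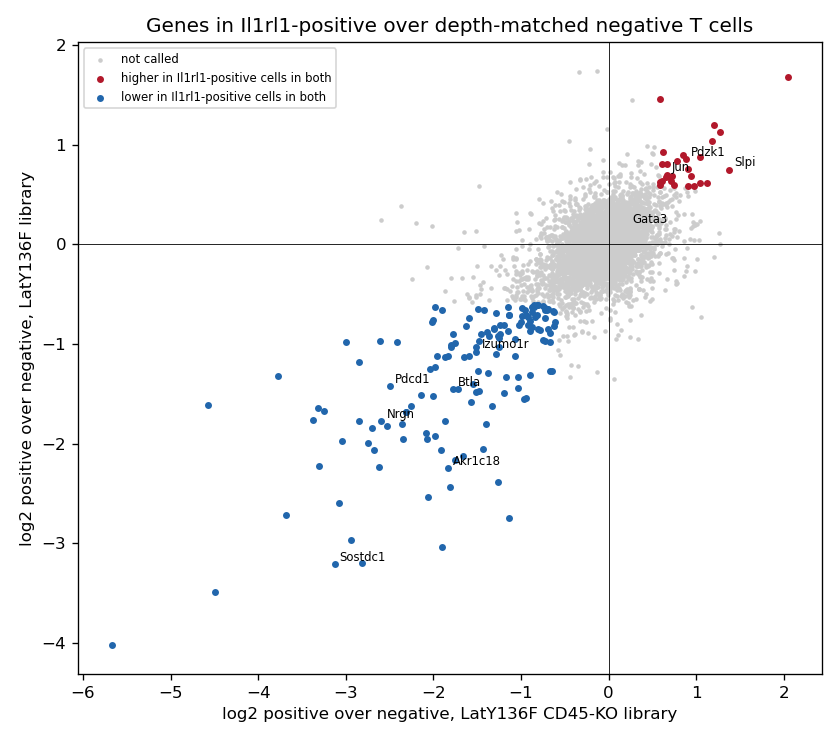
Log2 ratio of CPM in Il1rl1-positive over depth-matched negative T cells for each of 10095 genes, in the LatY136F CD45-KO library (x axis) and the LatY136F library (y axis). Red points are the 28 genes called higher and blue points the 144 called lower in both. Lower genes reach farther from 0, with Sostdc1 at -3.13 and -3.21 and Pdzk1 at 0.88 and 0.85.

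The 12 genes that stood highest in positive cells were Pdzk1, Pltp, Trim16, Jun, Socs3, Il7r, Cysltr1, Itgae, Slpi, Entpd1, Trat1 and Fos. Pdzk1, a scaffold protein with PDZ domains encoded on chromosome 3 (96829284 to 96870926, GRCm38), was at 94.9 CPM in positive against 51.6 CPM in negative LatY136F CD45-KO cells, and at 81.4 against 45.1 CPM in LatY136F cells. Its ratios were 0.88 (0.73 to 1.03) and 0.85 (0.72 to 0.99), nearly the same in both libraries. It overlaps the start of Cd160 on the other strand, head to head, so reads there may belong to either gene. Pltp, a phospholipid transfer protein, was at 186 against 124 CPM in LatY136F CD45-KO cells and at 240 against 159 CPM in LatY136F cells, a ratio of 0.59 in each. Socs3, a feedback inhibitor of cytokine signalling, had ratios of 0.59 and 0.62, and Trim16, a tripartite motif protein, 0.71 and 0.63.

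Il7r, the receptor chain for interleukin 7 and a survival gene of resting and memory T cells, was abundant on both sides. It was at 2036 CPM in positive against 1499 CPM in negative LatY136F CD45-KO cells and at 1440 against 1055 CPM in LatY136F cells, with ratios of 0.44 (0.41 to 0.47) and 0.45 (0.42 to 0.48), below the 1.5-fold rule. Cysltr1, a receptor for cysteinyl leukotrienes, had ratios of 0.70 and 0.45. Itgae, the alpha chain of an integrin that binds E-cadherin, had 0.56 and 0.47, and Entpd1, an ectonucleotidase, 0.46 and 0.42. Of the immediate early genes, Jun had 0.66 and 0.70 and Fos 0.43 and 0.42. Slpi, a secreted protease inhibitor, rested on few cells. It had a UMI in 50 positive LatY136F CD45-KO cells, and 1 of them held 1008 UMIs, so its ratios of 1.38 and 0.75 describe single cells.

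Among other called genes, chosen after their values were seen, Alox5, the enzyme that starts leukotriene synthesis, was at 33.4 CPM in positive against 13.9 CPM in negative LatY136F CD45-KO cells and at 41.0 against 18.7 CPM in LatY136F cells. Its ratios were 1.27 (0.99 to 1.55) and 1.13 (0.92 to 1.34). The leukotriene B4 receptor gene Ltb4r1 had ratios of 1.04 and 0.88 at low levels, with a UMI in 55 positive against 26 negative LatY136F CD45-KO cells and in 45 against 27 LatY136F cells. Gata1, a relative of Gata3 known from red cell, mast cell and basophil lineages, had ratios of 1.20 and 1.20, with a UMI in 47 against 19 and in 175 against 78 cells. Jag1, a Notch ligand, had 0.65 and 0.67, and Cdh1, which encodes E-cadherin, 0.84 and 0.90.

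Of the 12 genes that stood lowest in positive cells, 4 were on the Tfh list, Sostdc1, Pdcd1, Btla and Cd200. Sostdc1, a secreted BMP and Wnt antagonist made by some Tfh cells, was at 13.4 CPM in positive against 117 CPM in negative LatY136F CD45-KO cells and at 5.75 against 53.3 CPM in LatY136F cells, ratios of -3.13 (-3.38 to -2.88) and -3.21 (-3.55 to -2.89). Pdcd1, the inhibitory receptor PD-1, was at 10.7 against 60.2 CPM and at 17.6 against 47.4 CPM, ratios of -2.49 and -1.42. Btla, an inhibitory receptor, had -1.78 and -1.45, Cd200, a surface ligand of an inhibitory receptor, had -2.04 and -1.26, and Izumo1r, the folate receptor 4 gene, had -1.51 and -1.08. Nrgn, a calmodulin-binding protein, had -2.59 and -1.77, and Akr1c18, a steroid dehydrogenase, had -1.84 and -2.24. Marcksl1, Tbc1d4, Tnfsf8 and Cd81 had ratios from -1.98 to -1.07 in LatY136F CD45-KO cells and from -1.24 to -0.95 in LatY136F cells. Penk, the precursor of enkephalins, completed the 12, at 15.1 against 121 CPM and at 35.8 against 70.8 CPM.

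Cells with Tfh genes were rare. At 1000 UMIs, 0.299% of positive and 2.83% of negative LatY136F CD45-KO cells held a UMI of Cxcr5 or Sostdc1, and 0.333% of positive and 1.56% of negative LatY136F cells did. With every cell that held a UMI of 11 Tfh, CD8, cytotoxic or regulatory genes left out, an alternative chosen after seeing the data, 18 genes were called higher and 48 lower, of which 11 and 23 belonged to the 28 and 144. Some of those genes are themselves among the 144. Tbc1d4 then had ratios of -0.14 and -0.21 and Btla -0.78 and -0.51, while Nrgn with -2.24 and -1.17 and Izumo1r with -1.01 and -0.87 were still past 1.5-fold. On the higher side Pdzk1 kept 0.68 and 0.72, Alox5 0.83 and 0.93, and Gata3 had 0.11 and 0.12.

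Of 40 listed genes of the tissue-type Th2 state 29 could be compared, 0 were called higher and 2 lower. At the 0.277% called higher over all genes, a count of 0 is near the background. Called lower over all genes were 1.43%. Above 0 in both libraries were 13 members and below 0 in both were 11, and the list summed to 2634 CPM in positive against 2445 CPM in negative LatY136F CD45-KO cells and to 3401 against 3024 CPM in LatY136F cells. Their median ratio was -0.01 in the LatY136F CD45-KO library and 0.10 in the LatY136F library, against -0.03 and -0.00 over all 10095 genes. Both called lower were Cd109, a surface protein that binds TGF-beta, with -1.81 and -2.44, and Ramp1, a co-receptor for calcitonin gene-related peptide, with -1.98 and -1.92. Pparg, a lipid-sensing nuclear receptor of tissue Th2 cells, had a UMI in 4.66% of positive and 3.20% of negative LatY136F CD45-KO cells and in 4.76% of positive and 3.90% of negative LatY136F cells, with ratios of 0.45 (0.19 to 0.71) and 0.28 (0.06 to 0.51). Il17rb, the receptor chain for interleukin 25, had -1.65 in LatY136F CD45-KO cells and 0.12 in LatY136F cells. Ccr3, a chemokine receptor of Th2 cells and eosinophils, had 0.40 and 0.49, and Hpgds, a prostaglandin D synthase, 0.19 and 0.62. Klrg1 had -0.01 and 0.22, Il9r -0.90 and -0.16, and Rora -0.59 and -0.35.

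**Figure D3:**
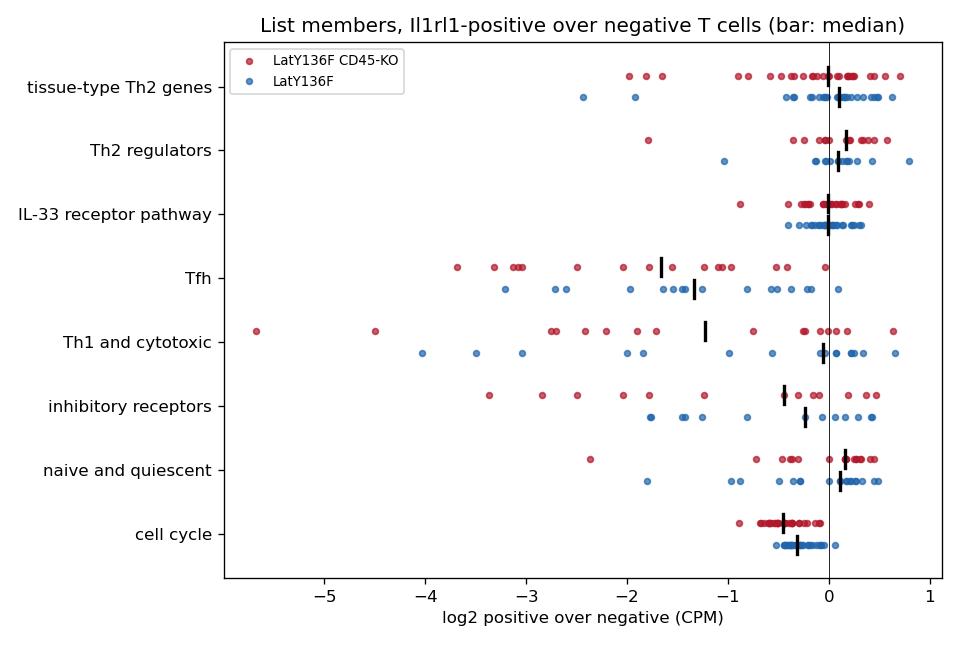
Log2 ratio of CPM in Il1rl1-positive over depth-matched negative T cells (x axis) for the compared members of 8 gene lists (rows), with the LatY136F CD45-KO library above the LatY136F library in each row and a black bar at the median. The Tfh medians lie at -1.67 and -1.34, and those of tissue-type Th2 genes at -0.01 and 0.10.

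The Th2 cytokine genes were rare. Il4, the signature cytokine of Th2 and Tfh cells, had a UMI in 4.05% of positive and 6.33% of negative LatY136F CD45-KO cells and in 5.03% of positive and 7.29% of negative LatY136F cells. Its level was 22.1 against 46.1 CPM and 32.6 against 42.1 CPM, with ratios of -1.06 (-1.29 to -0.84) and -0.37 (-0.54 to -0.20). In the LatY136F library 1 positive cell held 86 of 487 UMIs. Without the cells that held Tfh, CD8, cytotoxic or regulatory genes the ratios were -0.17 and -0.16. Il13 had a UMI in 1 positive and 5 negative LatY136F CD45-KO cells, and in 10 positive and 17 negative LatY136F cells, of which 1 positive cell held 58 UMIs. Il5 was at 0 in all 4868 positive LatY136F CD45-KO cells of the pairs, which allows a share of up to 0.0616% of cells with a UMI, and was found in 2 positive and 4 negative LatY136F cells. Il5 and Il13, the effector cytokine genes of tissue Th2 cells, were not detectable in most positive cells at this depth.

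Il6 was the only compared cytokine gene whose interval lay above 0 in both libraries, and its ratio passed 1.5-fold in 1 of them. It encodes an inflammatory cytokine, and had a UMI in 133 positive against 72 negative LatY136F CD45-KO cells and in 418 against 304 LatY136F cells, with ratios of 0.90 (0.49 to 1.32) and 0.52 (0.33 to 0.72). Il21, the Tfh cytokine, was called lower, with -3.04 and -1.97. Csf2, a myeloid growth factor gene, had 0.23 and 0.42, and Il2, the T cell growth factor gene, had -0.34 and -0.22, with intervals that include 0. Areg, a tissue repair factor, had a UMI in 20 positive and 21 negative LatY136F CD45-KO cells and in 19 and 31 LatY136F cells. Il10 was found in 1 positive and 3 negative LatY136F CD45-KO cells and in 21 and 18 LatY136F cells, and Il3 in 0 and 0 and in 5 and 3, where 1 positive LatY136F cell held 98 Il3 UMIs.

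Of 16 listed Th2 regulators 15 were compared, with 0 called higher and 1 lower and medians of 0.17 and 0.09. Il4ra, the interleukin 4 receptor chain, was at 72.3 against 48.4 CPM in LatY136F CD45-KO cells and at 116 against 86.5 CPM in LatY136F cells, ratios of 0.58 (0.42 to 0.74) and 0.43 (0.32 to 0.53). Irf4 had 0.39 and 0.17, Nfil3 0.31 and 0.20, and Ecm1, a secreted protein that aids Th2 cell exit from lymph nodes, 0.34 and 0.80. The member called lower was Bhlhe40, a transcription factor of cytokine-producing T cells, with -1.79 and -1.03. In the receptor pathway all 29 listed genes were compared, 0 were called in either direction and the medians were -0.01 and -0.00. With 0.277% called higher and 1.43% lower over all genes, a count of 0 in this list is near the background. The partner chain gene Il1rap was at 11.1 against 11.1 CPM and 9.89 against 10.1 CPM, ratios of 0.00 and -0.04. Myd88 had 0.12 and 0.13, Mapk14 0.39 and 0.22, and the feedback inhibitors Tnfaip3 and Nfkbia 0.30 and 0.32, and 0.29 and 0.23. Nfkbiz, a nuclear NF-kappa-B regulator, had -0.88 and -0.41.

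Of 16 compared Tfh genes 10 were called lower and 0 higher, with medians of -1.67 and -1.34. Over all genes 1.43% were called lower and 0.277% higher. Cxcr5, the homing receptor for follicles, was at 2.84 against 24.0 CPM in LatY136F CD45-KO cells and at 1.74 against 10.5 CPM in LatY136F cells, ratios of -3.08 and -2.60. Tox2 had -3.32 and -1.64, and Bcl6, the master regulator of Tfh cells, -1.55 and -0.58. Of 16 compared Th1 and cytotoxic genes 6 were called lower, with medians of -1.23 and -0.06. Above 0 in both libraries were 3 members and below 0 in both were 9. Klrk1 had a UMI in 157 positive against 109 negative LatY136F CD45-KO cells and in 95 against 75 LatY136F cells. Gzmb had ratios of -0.25 and 0.66, with a UMI in 144 against 109 and in 795 against 570 cells. Gzmk had a UMI in 2 positive against 32 negative LatY136F CD45-KO cells and in 2 against 28 LatY136F cells. Cxcr3 had ratios of -2.70 and -1.84 and Ccl5 -4.50 and -3.49. Of 13 compared inhibitory receptor genes 6 were called lower, 4 of them also Tfh list members, and Lag3 had -3.37 and -1.76.

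Cell cycle genes stood slightly lower in positive cells. Of 31 genes, 30 were below 0 in both libraries and 0 passed 1.5-fold in both, with medians of -0.45 and -0.32. Pclaf, a replication factor, was past 1.5-fold in LatY136F CD45-KO cells alone, with -0.89 and -0.52. Mki67, a proliferation marker, was at 157 against 223 CPM in LatY136F CD45-KO cells and at 279 against 340 CPM in LatY136F cells, ratios of -0.51 and -0.28. Of 19 compared naive and quiescent genes 2 were called lower, against 1.43% over all genes, and the medians were 0.16 and 0.11. Lef1 had 0.27 and 0.18, while Tcf7, its partner in resting T cells, had -0.37 and -0.28. Regulatory T cells were rare. Foxp3 had a UMI in 8 positive and 20 negative LatY136F CD45-KO cells and in 37 positive and 46 negative LatY136F cells. Of 24 compared early receptor-induced genes 1, Jun, was called higher and 3 lower, against 0.277% and 1.43% over all genes. The 3 were Nr4a3 with -1.38 and -1.30, Dusp4 with -1.79 and -1.01, and Tnfrsf9 with -1.87 and -1.14. Fosb, Junb and Myc had ratios from 0.32 to 0.61.

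Of 19 common gamma chain and JAK-STAT genes 1, Socs3, was called higher, and the STAT5 targets Cish and Pim1 had 0.37 and 0.51, and 0.34 and 0.32. Of 27 compared interferon response genes 4 were called lower, against 1.43% over all genes. They were Ifit3, Oasl2, Iigp1 and Gbp3, with ratios from -1.72 to -0.62. Ccr2, a receptor for inflammatory chemokines, had 0.41 and 0.36. Of 8 compared markers of type 2 innate lymphoid cells, which also carry ST2, 0 were called, with medians of -0.30 and 0.12. In the LAT signalling, Th17, heat shock, and glycolysis and lipid lists 0 genes were called in either direction. For lists of this size such counts of 0 are near the 0.277% called higher and 1.43% called lower over all genes.

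Markers of other cells were summed over their lists. B cell markers summed to 439 CPM in positive against 559 CPM in negative LatY136F CD45-KO cells and to 216 against 212 CPM in LatY136F cells. Plasma cell markers summed to 3559 against 2110 CPM and to 662 against 330 CPM, and myeloid markers to 402 against 507 CPM and 339 against 416 CPM. Of 11 listed plasma cell markers only 3 were compared gene by gene, with medians of -0.06 and 0.40. Among them 1 was above and 1 below 0 in both libraries. Basophil and mast cell markers summed to 25.1 against 58.3 CPM and 57.9 against 73.0 CPM, with 3 listed markers at 0 in all positive cells. Most of these sums was 1 gene, Hdc, with 168 against 539 and 826 against 1046 UMIs. Cpa3, Fcer1a, Ms4a2 and Gata2 each had a UMI in at most 4 cells of a group. The part of these transcripts in the ratios was not tested. With cells that held UMIs of other lineages left out, 22 genes were called higher and 141 lower, of which 17 and 114 belonged to the 28 and 144. Mitochondrial shares had medians of 9.57% in positive and 9.08% in negative LatY136F CD45-KO cells and of 8.67% and 8.46% in LatY136F cells.

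The ratios differed with the number of Il1rl1 UMIs in the positive cells. Positive cells with 1, 2, 3 or 4, and 5 or more Il1rl1 UMIs, 2812, 1982, 1953 and 939 cells in the LatY136F CD45-KO library and 3113, 1903, 1823 and 919 cells in the LatY136F library, were each matched to negative cells of their own depth, so the negative cells differ between classes too. In this order Pdzk1 had ratios of 0.55, 0.88, 0.92 and 1.67 in LatY136F CD45-KO cells and of 0.60, 0.92, 1.26 and 1.23 in LatY136F cells. Il7r had 0.26, 0.43, 0.55 and 0.83, and 0.28, 0.31, 0.54 and 0.72. Cysltr1 had 0.55, 0.60, 0.81 and 1.21, and 0.30, 0.47, 0.52 and 0.90. Pdzk1 in the positive cells themselves was at 83.7, 92.7, 99.3 and 123 CPM in the LatY136F CD45-KO library and at 65.5, 87.4, 104 and 102 CPM in the LatY136F library. Il7r in LatY136F CD45-KO cells was at 1985, 2102, 2129 and 2140 CPM in positive against 1660, 1556, 1450 and 1206 CPM in negative cells. Much of the order of its ratio there came with the matched negatives. Pltp in that library went from 173 to 200 CPM in positive and from 136 to 101 CPM in negative cells between the first and last class. The ratios of Pdzk1, Il7r and Cysltr1 were larger in the class with the most Il1rl1 than in the class with 1 UMI, in both libraries. Pltp ran from 0.35 to 0.99 and from 0.38 to 0.89 between those classes, Il4ra from 0.25 to 0.91 and from 0.19 to 0.98, and Socs3 from 0.38 to 1.09 and from 0.26 to 1.09.

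Nrgn and Mki67 stood further below negative cells in each next class. Nrgn had -1.16, -3.31, -3.94 and -4.51 in LatY136F CD45-KO cells and -1.40, -2.05, -2.57 and -3.15 in LatY136F cells. Mki67 had -0.20, -0.62, -0.71 and -1.13, and -0.13, -0.28, -0.48 and -0.99. In LatY136F CD45-KO cells this order came with the matched negatives, since Mki67 was at 124, 112, 133 and 152 CPM in positive cells against 142, 171, 217 and 333 CPM in negative cells. Gata3 changed little over the classes, with 0.17, 0.18, 0.19 and 0.28, and 0.13, 0.10, 0.15 and 0.31. Pparg had no such order, with 0.61, 0.47, 0.59 and 0.19, and 0.24, 0.25, 0.34 and 0.16. Il4 stayed below 0 in every LatY136F CD45-KO class, while the LatY136F class with 2 UMIs had 0.33, where 1 cell held 86 of the 203 Il4 UMIs.

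**Figure D4:**
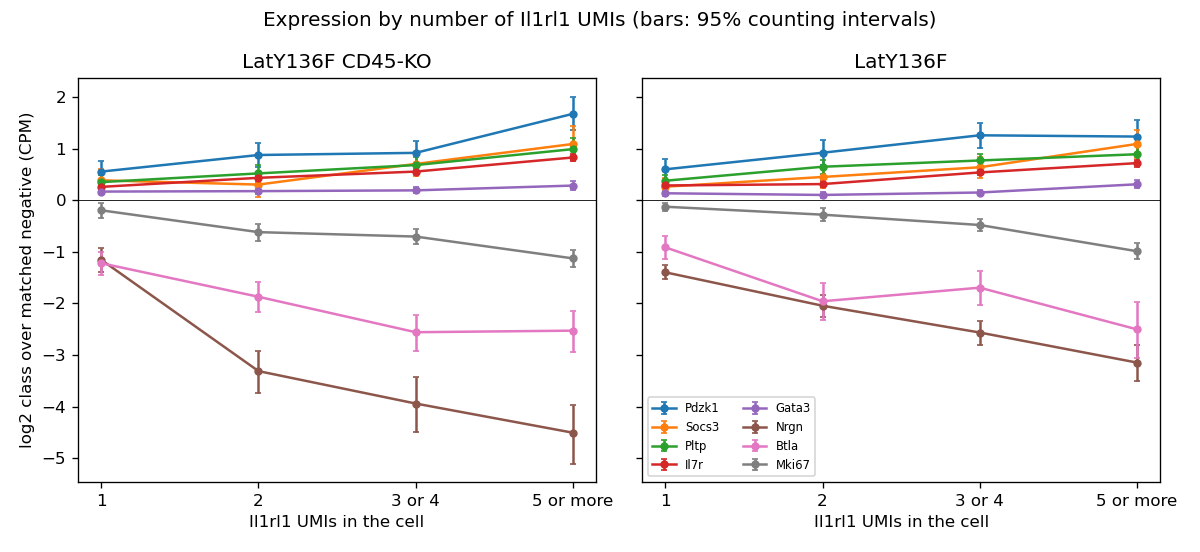
Log2 ratio of CPM over depth-matched negative T cells (y axis) by the number of Il1rl1 UMIs in the positive cell (x axis), for the LatY136F CD45-KO library and the LatY136F library, with 95% counting intervals as bars. Pdzk1 and Il7r lie higher in the class with the most Il1rl1 than in the class with 1 UMI, Nrgn and Mki67 lie lower, and Gata3 stays between 0.10 and 0.31.

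The comparison of genotypes among positive cells asked how cells with the Il1rl1 transcript differed between LatY136F CD45-KO and LatY136F mice. All 7686 and 7758 positive cells were summed, and 10673 genes had at least 50 UMIs over both sums. At least 1.5-fold higher in LatY136F CD45-KO cells were 583 genes, 5.46%, and 738 were lower, 6.91%, with a median ratio of 0.01 over all genes. Genotype and library cannot be told apart. Il1rl1 itself, which chose the cells, was at 1085 CPM in LatY136F CD45-KO positive cells against 950 CPM in LatY136F positive cells, and is given as a description.

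Genes of resting T cells stood higher in the LatY136F CD45-KO library, and those named here did so in negative cells as well. Of 20 compared naive and quiescent genes 9 were higher and 1 lower in positive cells, with a median of 0.52. Over all genes 5.46% were higher and 6.91% lower. Tcf7, a transcription factor of resting and memory T cells, was at 353 CPM in LatY136F CD45-KO positive cells against 155 CPM in LatY136F positive cells, a ratio of 1.19 (1.12 to 1.25), and its ratio among negative cells was 1.28. Lef1 had 0.86 in positive and 0.78 in negative cells, Ccr7, the lymph node homing receptor, 1.39 and 1.12, and Itga4, an integrin chain, 1.27 and 1.18. Ikzf2, the transcription factor Helios, was at 68.5 against 14.2 CPM, a ratio of 2.27 (2.08 to 2.46), and among negative cells its ratio was 1.37. Ifi208, an interferon-inducible PYHIN gene, had 2.50, Selenop, a selenium transport protein, 2.13, Jun 1.58 and Hs3st3b1, a heparan sulfate enzyme, 1.33. Negative cells differed between the libraries too. Ifi208 had a UMI in 16.7% of negative LatY136F CD45-KO and 3.02% of negative LatY136F cells, Jun in 6.24% and 3.21% and Hs3st3b1 in 32.2% and 15.7%. Among positive cells Slpi had 4.23, a ratio that rests on few cells. In LatY136F CD45-KO cells with 2 Il1rl1 UMIs, 1 cell held 1008 of 1264 Slpi UMIs. In those with 3 or 4, 1 cell held 525 of 720. H2-Aa, an MHC class II gene of antigen-presenting cells, was at 58.0 against 20.5 CPM in positive cells. All 5 compared B cell markers, H2-Aa among them, were higher in the LatY136F CD45-KO library, and their part in these ratios was not tested.

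Cell cycle genes stood lower in the LatY136F CD45-KO library. Of 31 cell cycle genes 24 were lower and 0 higher, against 6.91% and 5.46% over all genes, with a median of -1.22. Kif23, a mitotic kinesin, had -2.17, Rrm2, a nucleotide synthesis enzyme, -1.79 and Pclaf -1.76, and among negative cells they had -1.43, -1.46 and -1.17. Of 14 compared Th1 and cytotoxic genes 7 were higher and 3 lower, with a median of 0.51, and the 3 were Gzma, Gzmb and Nkg7. Gzmb, which encodes granzyme B, stood at 22.6 CPM in LatY136F CD45-KO positive cells against 154 CPM in LatY136F positive cells, a ratio of -2.77 (-2.92 to -2.62), and Gzma was at 9.70 against 88.5 CPM, a ratio of -3.19. Dnase1l3, a secreted nuclease, had -2.71, Efna5, an ephrin ligand, -2.40, Hdc, the enzyme that makes histamine, -2.04, and Anxa2, an annexin of activated T cells, -1.67. Arhgap5 had 1.24 and Focad -1.77. Negative cells differed in the same direction for Gzmb, Gzma, Efna5, Anxa2, Dnase1l3, Hdc, Focad and Arhgap5. Gzmb had a UMI in 2.20% of negative LatY136F CD45-KO and 9.87% of negative LatY136F cells, and Gzma in 1.11% and 6.88%. Efna5 had a UMI in 1.31% and 7.73% and Anxa2 in 22.1% and 50.2% of negative cells. Dnase1l3 had a UMI in 3.76% and 7.94%, Hdc in 3.27% and 5.60%, Focad in 2.34% and 9.37%, and Arhgap5 in 15.4% and 8.36%.

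**Figure D5:**
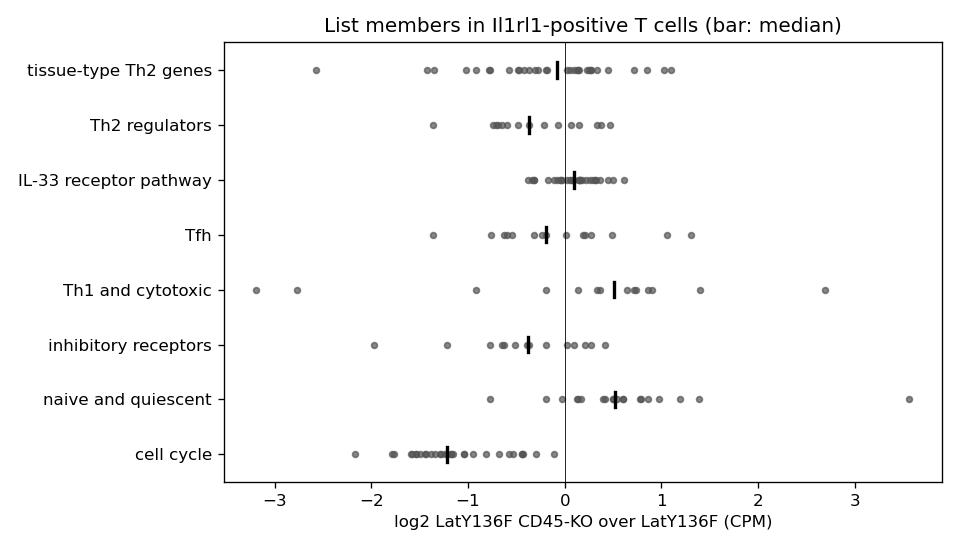
Log2 ratio of CPM in LatY136F CD45-KO over LatY136F Il1rl1-positive T cells (x axis) for the compared members of 8 gene lists (rows), with a black bar at the median. Cell cycle genes have the lowest median, -1.22, and naive and quiescent genes the highest, 0.52.

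Of 15 compared Th2 regulators 0 were higher and 6 lower in LatY136F CD45-KO positive cells, with a median of -0.37. Over all genes 5.46% were higher and 6.91% lower. Ecm1 had -1.36, Irf4 -0.74, Il4ra -0.69 and Nfil3 -0.65, while Gata3 was at 1025 against 1076 CPM, a ratio of -0.07 (-0.10 to -0.04). Negative cells differed in the same direction for Il4ra, Irf4 and Ecm1. Il4ra had a UMI in 9.42% of negative LatY136F CD45-KO and 18.0% of negative LatY136F cells, Irf4 in 6.10% and 11.7%, and Ecm1 in 2.12% and 4.27%. Of 32 compared tissue-type Th2 genes 4 were higher and 7 lower, with a median of -0.08, and Il17rb had -2.57, Lgals3 -1.02 and Klrg1 0.72. Il4 was at 22.3 against 32.7 CPM, a ratio of -0.55 (-0.73 to -0.37), and Il6 was at 13.0 against 35.7 CPM, a ratio of -1.46. Il6 had a UMI in 1.52% of negative LatY136F CD45-KO and 5.27% of negative LatY136F cells, and Il4 in 6.26% and 7.26%. Of 29 receptor pathway genes 1, Mapk14 with 0.61, was higher and 0 lower in positive cells. At the 5.46% and 6.91% over all genes these 2 counts are near the background. Of 14 compared regulatory T cell genes 1 was higher, Ikzf2, and 7 lower, among them Foxp3 with -2.28 and Il2ra with -1.25. Of 15 heat shock and dissociation stress genes 6 were higher, and Hspa1b, an inducible chaperone, had 2.99. Negative cells differed in the same direction for Il17rb, Klrg1, Foxp3, Il2ra and Hspa1b. Il17rb had a UMI in 1.68% of negative LatY136F CD45-KO and 3.48% of negative LatY136F cells, and Klrg1 in 15.0% and 9.08%. Foxp3 had a UMI in 0.404% and 0.785%, Il2ra in 3.35% and 7.07%, and Hspa1b in 6.49% and 0.768%.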

How the data were processed

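Each deposited table gives, per the file headers, an error-corrected UMI count for every cell and gene, without normalization. The headers record the BD WTA Multiplex Rhapsody Analysis Pipeline 1.9.1 with GRCm38 and GENCODE M19. Pipeline 2.0 and Seurat 4.04 are named in the design text, and GRCm39 in the submitters' processing notes. Here the headers were followed. The files held 29268453 UMIs (LatY136F CD45-KO) and 35300371 UMIs (LatY136F), and the filters on genes and mitochondrial share removed 11 and 28 cells. The libraries shared 223 cell index values, which were left out as an alternative. Doublets were not called.

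Counts were summed over cells and scaled to CPM. Ratios have exact conditional binomial intervals and shares Clopper-Pearson intervals at 95%, and a count of 0 was set to 3 for a limit. Interval and matching code was tested on simulated data. Named genes are the 12 highest and 12 lowest in positive against negative cells and the 10 highest and 10 lowest between libraries, ranked by the interval bound nearest 0 with at least 50 CPM in 1 sum (receptor segments, immunoglobulin, mitochondrial, ribosomal, sex-linked and unnamed genes left out), Th2 cytokine genes, and up to 6 members of each list. Outside that rule, Alox5, Gata1, Jag1, Cdh1, Ltb4r1, Bcl6, Ccr2, Hpgds, Il1rap, Il5, Junb, Lef1, Lgals3, Mki67, Myc, Myd88, Nfil3, Nfkbia and Pim1 were named after their values were seen. The members, lists and tests were chosen with earlier results of these data known. Promoter windows come from RefSeq (GRCm38.p6) and gene positions from GENCODE M21. Python 3.11.15, numpy 2.4.6, scipy 1.17.1 and edgeR 4.0.16 (TMM scaling alone) were used.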

Additional observations from a re-analysis of the deposited data

Results flagged for a closer look

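Il1rl1 was also found in cells outside the T cell rule. Of 189 LatY136F CD45-KO cells without a UMI of Trac, Cd3e or Cd3g, 96 held Il1rl1, and 58 of 107 LatY136F cells did. Of those, 87 of 96 and 58 of 58 held a UMI of another T cell gene, Trbc1, Trbc2, Cd3d or Cd247. Of cells with a UMI of Mcpt8, 7 of 11 LatY136F CD45-KO and 12 of 24 LatY136F cells held Il1rl1, and 6 of the 7 and 4 of the 12 held Ms4a2, a basophil and mast cell gene.

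The ratio of positive over negative cells had opposite signs in the libraries, with intervals on opposite sides of 0 and at least 50 UMIs in each library, for 3 named genes, a difference between the libraries that was not tested. Gzma had -2.20 in LatY136F CD45-KO cells and 0.22 in LatY136F cells, Gzmb -0.25 and 0.66, and Dnase1l3 -2.02 and 0.19. In the LatY136F CD45-KO library 1 negative cell held 128 of 372 Gzma UMIs, and 1 held 40 of 283 Gzmb UMIs. The numbers of cells with a UMI did not have opposite signs for these 2 genes. Gzma had a UMI in 61 positive and 55 negative LatY136F CD45-KO cells and in 493 and 397 LatY136F cells. Gzmb had a UMI in 144 and 109 and in 795 and 570 cells. Dnase1l3 had a UMI in 77 and 186 and in 523 and 461 cells. Il13 was under that minimum in LatY136F CD45-KO cells, with 1 UMI in positive against 24 in negative cells, and had 94 against 36 in LatY136F cells, 58 of them in 1 positive cell.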

How the results depend on the processing

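No paired analysis was possible because each genotype has 1 library. Matching 3 negatives to each positive cell was not run, because positives outnumbered negatives.

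The share of positive cells was 38.6% in the LatY136F CD45-KO and 34.1% in the LatY136F library with at least 2 Il1rl1 UMIs, 61.9% and 58.0% without cells holding Mki67 or Top2a, and 63.0% and 59.0% without cells holding Tfh, CD8, cytotoxic or regulatory genes, an alternative chosen after seeing the data. It was 43.5% and 38.6% at 1000 UMIs and 58.2% and 49.5% at 2000 UMIs, and 57.0% in the LatY136F CD45-KO library with at most 10% mitochondrial counts.

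Against 28 higher and 144 lower genes, 46 and 218 were called with at least 2 Il1rl1 UMIs, 60 and 264 with at least 20 UMIs per gene, 719 and 881 with at least 1 UMI, 4 and 72 at 2-fold, and 18 and 48 without Tfh, CD8, cytotoxic or regulatory cells. Without matching, 232 were lower. Between the libraries, against 583 and 738, 911 were higher with at least 20 UMIs, 4169 higher and 3558 lower with at least 1 UMI, and 200 and 325 at 2-fold.

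Some ratios reversed, and the cause was not tested. A count of 0 was set to 3 in these ratios too, so a gene with 0 UMIs on 1 side can take either sign. Slpi had -0.74 in LatY136F cells with at least 2 Il1rl1 UMIs, -0.33 and -0.45 in LatY136F CD45-KO and LatY136F cells without other lineages, -2.93 in LatY136F cells without cycling cells, -0.27 and -2.00 without the deepest 5% of cells, -1.64 in LatY136F cells as a mean over cells and -2.03 without shared indices. Il10 in LatY136F CD45-KO cells had 0.062 without matching, 0.75 with at least 3 T cell UMIs and 0.43 without other lineages. It had 0.59 there without cycling cells and 1.59 without Tfh, CD8, cytotoxic or regulatory cells. These ratios rest on few UMIs or on a 0 set to 3. Il10 had 1 UMI in positive and 3 in negative LatY136F CD45-KO cells of the pairs, and 5 UMIs in 2 cells over all positives. In LatY136F cells Il10 had -0.65 without cycling and -0.11 without the deepest cells. Without the deepest cells, Il13 and Il3 had -0.87 and -0.59 in LatY136F cells, and the ratios between libraries were -0.20 for Akr1c18, -0.82 for Ccl5 and 0.14 for Il3. Without Tfh, CD8, cytotoxic or regulatory cells, LatY136F CD45-KO cells had 0.42 for Gzma, 0.00845 for Il13 and a Th1 and cytotoxic median of 0.00845. LatY136F cells had -0.59 for Il3, and the ratios between libraries were 0.084 for Il3 and 0.67 for Il5. Il3 had 0 UMIs in all LatY136F CD45-KO positive cells, and Il5 had 1 there against 3 in LatY136F positive cells. The signs above 0 of Il3 and Il5 between libraries thus come from a 0 set to 3 and do not show higher expression.

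Cells of the same library are not replicates, intervals cover counting error alone, and a gene with few UMIs in a few cells, such as Slpi, Il13, Il3 or Il4, can be set by 1 cell. Fewer transcripts per cell and fewer cells with a transcript were separated only where shares of cells are given.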
